A study of Mus musculus with 32 samples.

Results

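The Runx family comprises Runx1, Runx2 and Runx3, which are described here together with their shared partner Cbfb in the jaws of mouse embryos. Members were taken by the gene symbol of the array's platform annotation, with every probe set of each gene. That rule found 3 of the 4 genes among the 18194 that the annotation names, with 9 of the array's 45101 probe sets. Runx1 had 6 of them, Runx3 had 2 and Cbfb had 1. The annotation used here names 0 probe sets as Runx2, so Runx2 expression was not analysed here.

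Runx proteins are transcription factors that bind DNA through a conserved Runt domain, and Cbfb, which does not bind DNA itself, joins them and strengthens that binding. Runx2 is needed for osteoblasts to form, Runx1 for blood stem cells to arise, and Runx3 for the proprioceptive neurons of sensory ganglia, while Runx1 and Runx3 are also found in skeletal and epithelial tissue. Smad proteins, which carry the signal of TGF-beta and BMP receptors to the nucleus, bind Runx proteins, and this places the family next to the receptor removed in these embryos.

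The data were 32 Affymetrix expression arrays of jaw tissue at embryonic day 13.5, in 8 groups of 4 arrays numbered 1 to 4. Mutant embryos came from crosses of Wnt1cre;Alk5fl/+ mice with Alk5fl/fl mice, on a background labelled C57B6, and controls were their littermates. Alk5, gene symbol Tgfbr1, is a type I receptor for TGF-beta ligands, and Wnt1cre acts in the neural crest and its descendants, so other cells of the jaw keep the receptor. Mutants were recognised by their cleft palate and calvarial defect, and the labels do not give the exact genotype of each control. The groups were the distal mandible, proximal mandible, distal maxilla and proximal maxilla of mutants, and the same 4 regions of controls. The labels do not say whether tissue was pooled or whether arrays came from separate embryos, so p-values measure only the spread between these arrays, which may be technical.

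The values are log2 expression on the RMA scale, on which 1 unit is a 2-fold difference and levels of different probe sets cannot be set against each other. A fall in whole tissue can mean fewer cells of a type or less RNA per cell, and these cannot be told apart. All 8 jaw mesenchyme markers lay above the filter level on all 32 arrays, and 5 lower-jaw identity genes averaged 11.02 to 11.37 in the mandible groups against 8.85 to 9.39 in the maxilla groups. The leading Tgfbr1 probe set had group means of 12.87 to 13.07 in mutants and 12.65 to 12.71 in controls, and it was higher in mutants in the distal maxilla (0.41 ± 0.07, limma, adjusted p = 0.0123). Whether it lies in the deleted part is not known here, so it does not check the labels. The Cre spike-in control read 13.53 to 13.85 on the 8 arrays of number 1 and 12.17 to 13.07 on the other 24. Xist was high (13.34 or more) on the arrays of mutant number 1 and control number 2, 8 arrays in all, and 10.72 or less on the rest. The array of control distal mandible number 3 had a Gapdh 3′ minus 5′ difference of 2.23, a sign of degraded RNA, where the next highest was 0.12.

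The start regions of the 3 Runx genes share a short sequence, shown here because it is a feature of the family that the choice of members did not use. RefSeq windows (build GRCm38.p6) from 250 bases before to 50 bases after each annotated start were available for all 4 genes, 6 windows in all. A tandem motif of 2 Runx-type sites, made of ACCACA, then NA, then ACCACA again, where N is any base, was searched on both strands. It was present once in the Runx2 window and once in the window of the upstream start of Runx1 and of Runx3. In the lines that follow, read 5′ to 3′ along each gene, capitals mark the 2 copies of ACCACA.
Runx1: taaacaACCACAgaACCACAagttgg
Runx2: caaacaACCACAgaACCACAagtgcg
Runx3: ccctcaACCACAgaACCACAaggcca
The Runx1 stretch lies at chr16:92826027-92826052 on the minus strand, with the motif's first base at position 29 of the transcript. The Runx2 stretch lies at chr17:44814585-44814610 on the minus strand, with the motif at position 24 of the transcript. The Runx3 stretch lies at chr4:135120505-135120530 on the plus strand, and its motif begins at position -134, before the start.

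The tandem motif was found in 5 of 32851 windows (0.0152%). The other 2 windows belong to Gm16225 and Olfr24, named after their match was seen. The single Runx-type site TGNGGT, also searched on both strands and overlapping the tandem motif, was in 45.8% of windows. It occurred 3 times at the upstream start of Runx1, 5 times in the Runx2 window and 2 times at the upstream start of Runx3. The Cbfb window and the downstream starts of Runx1 and Runx3 held 0. The Smad-type box CAGAC, on both strands, was in 49.6% of windows, with 2 and 1 in the Runx3 windows, 1 in that of Cbfb and 0 in those of Runx1 and Runx2. These are letter matches only and bear no measurement of binding. The tandem pattern was set by hand as 2 Runx-type sites with a fixed spacer, and it was not computed from the windows. How the spacer was chosen is not recorded. The presence of the pattern at the 3 Runx genes can therefore not be taken as an independent finding, and 0.0152% gives only its rarity.

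In the fits reported here Runx1 was the member that differed between mutant and control jaws. Its level was lower in mutants at the proximal end of the mandible, where its leading probe set stood at 0.380 times the control level, and on average over the 4 regions. A second Runx1 probe set was also lower in the distal mandible, where its groups overlapped and the leading one was not called. That call held in 9 of 23 alternative settings. Calls of the leading probe set held in 23 of 24 settings for proximal mandible and 13 of 23 for the average. Neither Runx3 nor Cbfb passed the test in any region. The filter on low signal was passed by 5 of the 6 Runx1 probe sets, both of Runx3 and that of Cbfb, or 8 of 9.

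The leading probe set of Runx1, 1422864_at, is the one with the highest mean over all arrays. In the proximal mandible it read 8.11, 8.35, 8.64 and 8.59 in mutants, against 9.54, 9.84, 10.12 and 9.77 in controls. The groups did not overlap, and every mutant array lay well below every control array. The difference was -1.40 ± 0.22 log2 (SE; limma, adjusted p = 0.00167), with a 95% interval of 0.276 to 0.522 for the ratio.

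In the distal mandible 1422864_at read 8.55, 9.60, 9.49 and 9.41 in mutants, against 9.93, 10.41, 9.60 and 9.78 in controls. Mutant number 1 was the lowest of the 8 arrays, and the highest mutant and the lowest control array both read 9.60. The difference of -0.67 ± 0.22 did not pass (limma, adjusted p = 0.16), and its 95% interval was -1.13 to -0.21.

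In the distal maxilla the same probe set read 9.62, 9.60, 9.39 and 9.26 in mutants, against 10.10, 10.18, 10.05 and 9.67 in controls. The groups did not overlap, but the lowest control array lay only just above the highest mutant one. The difference was -0.53 ± 0.22, with an interval of -0.99 to -0.07 (limma, adjusted p = 0.393). In the proximal maxilla it read 9.11, 9.61, 9.08 and 9.18 in mutants, against 10.84, 10.03, 9.65 and 10.16 in controls. Again the groups did not overlap, with control number 1 far above the other arrays. The difference of -0.93 ± 0.22 missed the threshold (limma, adjusted p = 0.209), with an interval of -1.38 to -0.47.

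All 4 mutant arrays of 1422864_at thus lay below all 4 control arrays in 3 of 4 regions, as they did for 0.559% of all 29356 probe sets tested. Among all probe sets the share without overlap in this direction was 5.96% for distal mandible, 4.47% for proximal mandible, 2.84% for distal maxilla and 1.15% for proximal maxilla. Ordered by mean, the 8 groups ran from control proximal maxilla (10.17 ± 0.50, SD) through control distal maxilla (10.001 ± 0.22), distal mandible (9.93 ± 0.35) and proximal mandible (9.82 ± 0.24). The mutant groups followed, with distal maxilla (9.47 ± 0.17), distal mandible (9.26 ± 0.48), proximal maxilla (9.24 ± 0.25) and proximal mandible (8.42 ± 0.24). Neighbours in this order overlapped in their arrays except the last pair, where mutant proximal mandible lay wholly below mutant proximal maxilla.

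**Figure D1:**
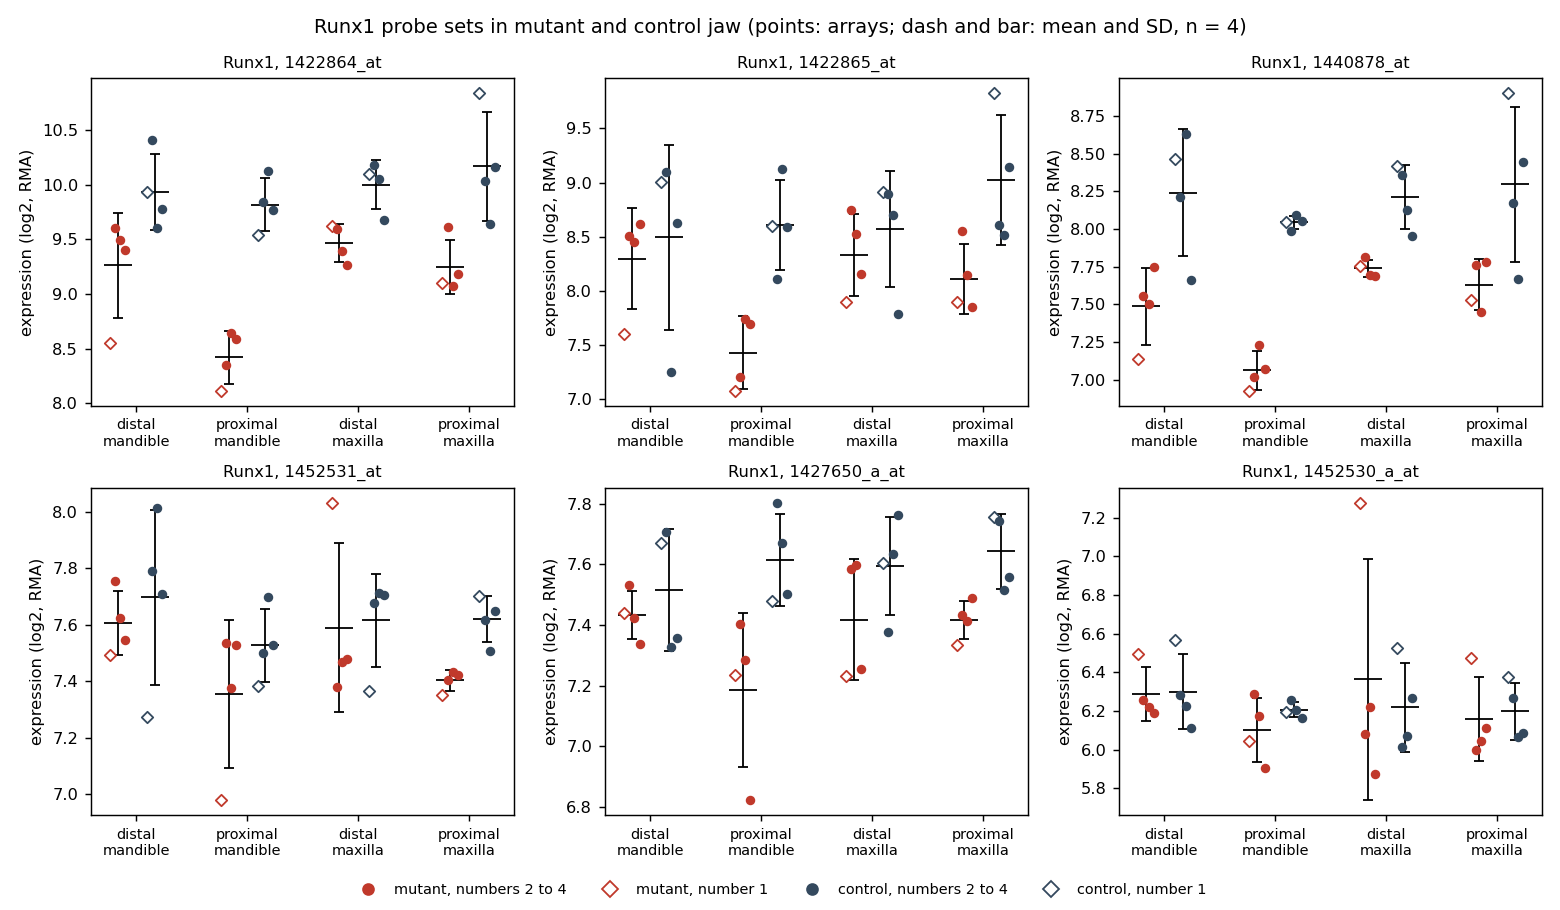
Expression of the 6 Runx1 probe sets in log2 RMA units, 1 panel each with its own axis, by jaw region. Points are arrays, with mutant (red) left of control (blue), diamonds marking number 1, and the dash and bar giving the mean and SD of 4 arrays. The panel of 1422864_at shows the mutant arrays of the proximal mandible between 8.11 and 8.64 and the control arrays between 9.54 and 10.12.

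The probe set 1440878_at, also annotated to Runx1, gave a similar picture. In the proximal mandible it read 6.93, 7.02, 7.23 and 7.07 in mutants, against 8.04, 7.99, 8.09 and 8.05 in controls. The control arrays were close together and all above the mutants, and the difference was -0.98 ± 0.19 (limma, adjusted p = 0.00973). In the distal mandible it read 7.14, 7.56, 7.50 and 7.75 in mutants, against 8.46, 8.21, 8.63 and 7.66 in controls.

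There the groups overlapped, since control number 4 lay below mutant number 4. The distal mandible difference was -0.75 ± 0.19 (limma, adjusted p = 0.0458). The call was lost without control distal mandible number 3, the array of degraded RNA (-0.62, adjusted p = 0.185). It was also lost without number 1, 2 or 3 of both genotypes (limma, adjusted p = 0.163, 0.258 and 0.409) and without control number 1, 2 or 3 or any 1 mutant number (0.0841 to 0.165). The maxillary differences of 1440878_at were -0.47 ± 0.19 at the distal end, where the groups did not overlap, and -0.67 ± 0.19 at the proximal end, where they did (limma, adjusted p = 0.355 and 0.397).

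The remaining Runx1 probe sets moved less or were more scattered. The probe set 1422865_at read 7.08, 7.21, 7.74 and 7.69 in mutant proximal mandible, against 8.60, 8.11, 9.13 and 8.59 in controls. These groups did not overlap, with a difference of -1.18 ± 0.35 that missed the threshold (limma, adjusted p = 0.149). Its difference in the distal mandible was -0.20 ± 0.35 with an interval of -0.92 to 0.52, and the control array of degraded RNA was its lowest reading there, at 7.26.

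The probe set 1427650_a_at differed by -0.43 ± 0.12 in the proximal mandible, where its groups did not overlap (limma, adjusted p = 0.105). With the replicate number as a block it passed there (adjusted p = 0.0488). The probe set 1452531_at differed by -0.22 to -0.02 between genotypes over the 4 regions, and none passed. In the proximal maxilla all 4 mutant arrays of 1427650_a_at and of 1452531_at lay below all 4 control arrays, as for 1.15% of all probe sets. There 1422865_at differed by -0.91 ± 0.35, with overlapping groups (limma, adjusted p = 0.992). The sixth, 1452530_a_at, exceeded the filter level on 1 of 32 arrays and was not tested. It averaged 6.10 to 6.36 in mutant groups and 6.20 to 6.30 in control groups. The files used here do not place these probe sets along the Runx1 transcripts.

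All 5 tested Runx1 probe sets had a lower mean in mutants in each of the 4 regions, as did 14.9% of all probe sets. The proximal mandible called 2 of the 8 members, both Runx1 and both lower, where 0.668% of all probe sets were called. There 5 of 8 had an unadjusted p under 0.05, against 9.23% of all probe sets. The distal mandible called 1 of 8, where 1.06% were called, with 2 of 8 at an unadjusted p under 0.05 (14.6% of all). The distal and proximal maxilla called 0 of 8 by limma, where 0.255% and 0.0341% of all probe sets were called. Each had 3 of 8 members at an unadjusted p under 0.05, against 9.93% of all probe sets at the distal end and 3.73% at the proximal end. The median difference of the 5 Runx1 probe sets was -0.98 for proximal mandible, -0.67 for proximal maxilla, -0.24 for distal maxilla and -0.20 for distal mandible. The medians over all probe sets lay between -0.02 and 0.02.

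The average genotype effect averaged the 4 regions within each number first, which left 4 mutant and 4 control values. For 1422864_at these were 8.85, 9.29, 9.15 and 9.11 in mutants, against 10.10, 10.12, 9.86 and 9.85 in controls. No mutant value reached any control value, and the difference was -0.88 ± 0.11 (limma, adjusted p = 0.0199), or 0.543 times the control level. Taken within numbers 1 to 4 it was -1.25, -0.83, -0.71 and -0.74, so number 1 gave the widest gap and all 4 pointed the same way. The probe set 1440878_at averaged 7.34, 7.54, 7.47 and 7.57 in mutants, against 8.46, 8.18, 8.13 and 8.03 in controls. Its values did not overlap either, and the difference was -0.72 ± 0.10 (limma, adjusted p = 0.0298). The averages of 1422865_at and 1427650_a_at also did not overlap, and neither was called (limma, adjusted p = 0.202 and 0.232). The share of all probe sets without overlap in these averages was not computed. With the replicate number as a block, the adjusted p of 1440878_at was 0.0618 and the call was lost.

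The probe sets 1422864_at and 1440878_at were the 2 of 8 members called in the average, where 0.375% of all probe sets were called. An unadjusted p under 0.05 by limma was seen for 5 of 8, against 11.5% of all. Both average calls were lost without number 2, 3 or 4 of both genotypes (limma, adjusted p of 0.131 to 0.237 for 1422864_at and 0.156 to 0.29 for 1440878_at), while the differences stayed between -0.94 and -0.74. They were lost as well without any 1 of control numbers 2, 3 or 4 or mutant numbers 2, 3 or 4 (limma, adjusted p of 0.0512 to 0.12). Without the 8 arrays of high Xist, an alternative added after seeing the data, 1422864_at averaged -0.75 (adjusted p = 0.0567). In the proximal mandible 1422864_at lost its call only without number 2 of both genotypes (-1.36, limma, adjusted p = 0.0568). There 1440878_at lost its call without number 2, 3 or 4 of both genotypes or without mutant number 2 or 3 (limma, adjusted p of 0.053 to 0.177). It also lost the call without the arrays of high Xist (adjusted p = 0.0898).

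**Figure D2:**
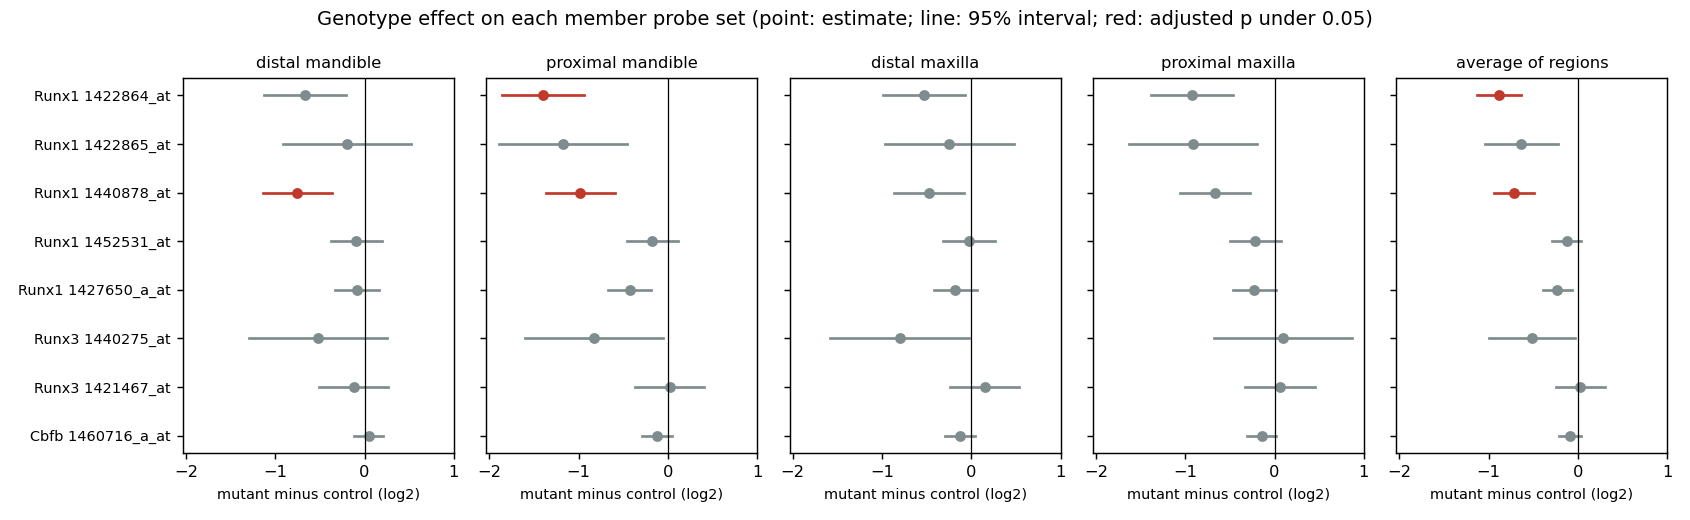
Mutant minus control difference in log2 units for the 8 tested probe sets of Runx1, Runx3 and Cbfb, with 1 panel for each region and 1 for the average of regions. Points are limma estimates, lines are 95% intervals, and red marks an adjusted p under 0.05. Red appears for Runx1 alone, at 1440878_at in the distal mandible (-0.75) and at 1422864_at and 1440878_at in the proximal mandible (-1.40 and -0.98) and in the average (-0.88 and -0.72).

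Whether the Runx1 difference itself varied by place was tested with interactions. The difference of 1422864_at was 0.73 ± 0.32 less negative at the distal than at the proximal end of the mandible, with an interval of 0.08 to 1.38. It did not pass (limma, unadjusted p = 0.0294, adjusted p = 1.00). Of the 8 members 0 passed in any of the 4 interactions of genotype with end or with jaw by limma. The unadjusted p was under 0.05 for 2, both Runx1 probe sets, between the ends of the mandible and for 0 in the other 3. Of all probe sets 0.0136% passed between the ends of the mandible, 0.0375% between the ends of the maxilla, 0.0307% between the jaws distally and 0.00681% proximally. The unadjusted shares were 3.19%, 3.52%, 5.45% and 1.80%.

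Runx3 varied widely between arrays of 1 group. Its leading probe set, 1440275_at, read 7.58, 7.89, 8.27 and 8.07 in mutant distal maxilla, against 8.65, 8.05, 9.15 and 9.17 in controls. The 2 groups overlapped through control number 2. In the distal mandible it read 7.29, 8.36, 8.27 and 8.08 in mutants, against 8.45, 8.53, 8.63 and 8.46 in controls. All 4 mutant arrays were lower there, as for 5.96% of all probe sets, with mutant number 1 lowest.

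In the proximal mandible 1440275_at read 6.74, 6.38, 7.25 and 6.43 in mutants, against 6.83, 7.52, 7.999 and 7.74 in controls, and the groups overlapped through the low control number 1. In the proximal maxilla it read 7.79, 8.71, 8.17 and 8.99 in mutants, against 7.15, 8.82, 7.76 and 9.57 in controls. There the control arrays alone spanned more than the other regions' differences. The genotype differences were -0.80 ± 0.38, -0.52 ± 0.38, -0.82 ± 0.38 and 0.09 ± 0.38 in the same 4 regions, and none passed (limma, adjusted p = 0.476, 0.55, 0.487 and 1.00).

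The average difference of Runx3 1440275_at was -0.51 ± 0.21, with an interval of -0.99 to -0.03 (limma, adjusted p = 0.395). The within-number averages were -0.42, -0.39, -0.40 and -0.84, all below 0. With number 1 as a covariate it passed (limma, adjusted p = 0.0434), and number 1 had the lowest average in both genotypes (7.35 in mutants and 7.77 in controls).

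By mean, the groups ran from control distal maxilla (8.76 ± 0.53, SD) and control distal mandible (8.52 ± 0.08) to mutant proximal maxilla (8.42 ± 0.54) and control proximal maxilla (8.32 ± 1.08). Then came mutant distal mandible (7.9999 ± 0.49), mutant distal maxilla (7.95 ± 0.29), control proximal mandible (7.52 ± 0.50) and mutant proximal mandible (6.70 ± 0.40). Every pair of neighbours overlapped in their arrays. In control mandible Runx3 was 1.00 ± 0.38 higher at the distal than at the proximal end (interval 0.22 to 1.77; limma, unadjusted p = 0.0135, adjusted p = 0.168). In the proximal controls it was -0.80 ± 0.38 in mandible relative to maxilla (limma, unadjusted p = 0.0426, adjusted p = 0.372).

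The second Runx3 probe set, 1421467_at, did not follow the first. It correlated with 1440275_at at r = -0.02 over the 32 arrays, and its highest reading was 8.08 on mutant distal maxilla number 1. Its group means were 6.85 to 7.11 in mutants and 6.83 to 7.04 in controls. It tracked the low Runx1 probe set 1452530_a_at at r = 0.93 over the same 32 arrays, although the 2 are annotated to different genes. Both lay near the level set by the filter, and the arrays share 1 normalization. The highest reading of 1452530_a_at, 7.28, was also on mutant distal maxilla number 1. Number 1 was the highest array for both in control distal mandible, control distal maxilla and both proximal maxilla groups too. The part of number 1 in this correlation was not tested. The regional differences of 1421467_at were -0.12 to 0.15 with an SE of 0.19, and the average was 0.03 ± 0.12.

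Cbfb is the partner that does not bind DNA itself. Its probe set 1460716_a_at lay between 12.74 and 13.20 on all 32 arrays. In the proximal mandible it read 12.82, 12.97, 13.04 and 12.97 in mutants, against 12.98, 13.07, 13.10 and 13.12 in controls. The groups overlapped, and mutant number 1 was lowest. In the distal mandible it read 12.95, 13.03, 13.10 and 13.07 in mutants, against 12.84, 13.14, 12.89 and 13.10 in controls, with the mutants inside the control range.

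In the distal maxilla Cbfb read 13.05, 12.91, 12.94 and 12.74 in mutants, against 12.95, 12.92, 13.12 and 13.14 in controls. In the proximal maxilla it read 12.92, 12.86, 12.83 and 12.997 in mutants, against 13.01, 13.09, 12.89 and 13.20 in controls. Both maxillary regions overlapped. The 4 regional differences were -0.12 ± 0.08, 0.04 ± 0.08, -0.12 ± 0.08 and -0.15 ± 0.08 for proximal mandible, distal mandible, distal maxilla and proximal maxilla (limma, adjusted p of 0.695 to 1.00). Their intervals together ran from -0.31 to 0.21. The average was -0.09 ± 0.06 with an interval of -0.21 to 0.04 (limma, adjusted p = 0.623). In the order of group means, from control proximal mandible (13.07 ± 0.06, SD) to mutant proximal maxilla (12.90 ± 0.07), every pair of neighbours overlapped. The width of this range cannot be set against that of Runx3, since the probe sets differ.

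**Figure D3:**
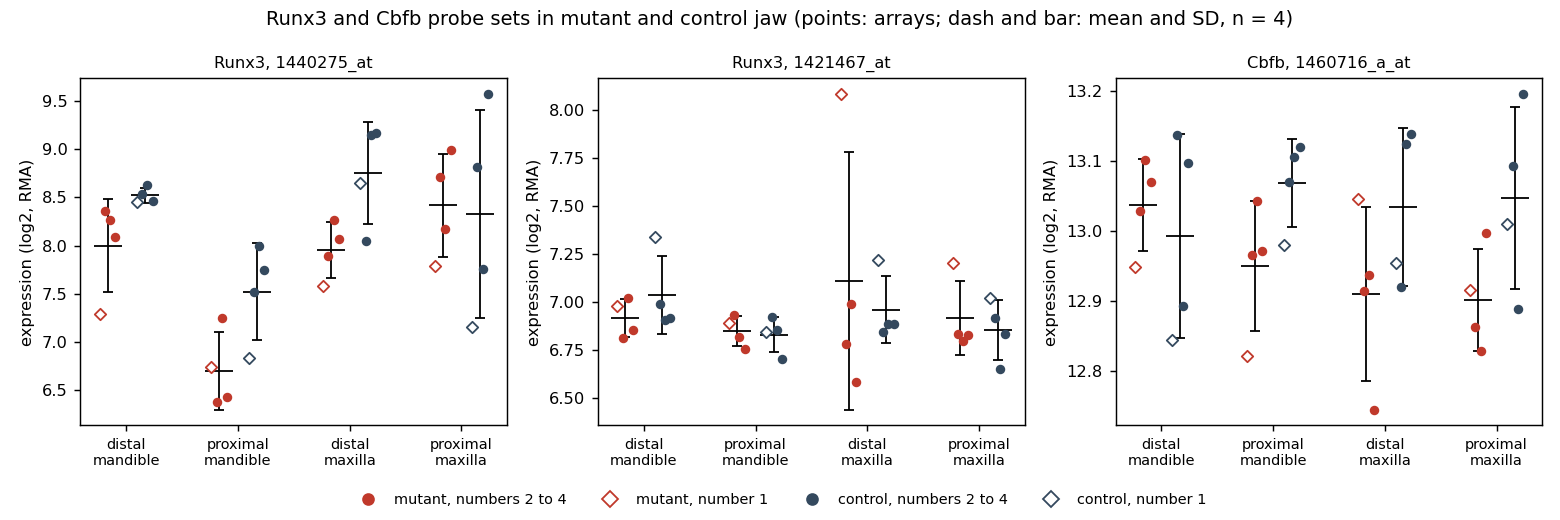
Expression of both Runx3 probe sets and of Cbfb in log2 RMA units, 1 panel each with its own axis, by jaw region. Points are arrays, with mutant (red) left of control (blue), diamonds marking number 1, and the dash and bar giving the mean and SD of 4 arrays. Runx3 1440275_at is lowest in mutant proximal mandible (6.70 ± 0.40), and Cbfb stays between 12.74 and 13.20.

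In control tissue 0 of the 8 members passed in any of the 4 comparisons of jaws or ends by limma. The unadjusted p was under 0.05 for 0 between the jaws distally, 1 between the jaws proximally, 1 between the ends of the mandible and 0 between the ends of the maxilla, and both were Runx3 1440275_at. Of all probe sets 1.04%, 3.27%, 3.07% and 0.00341% were called in the same 4 comparisons, and 10.4%, 12.6%, 17.0% and 2.47% had an unadjusted p under 0.05. The leading Runx1 probe set differed by -0.07 ± 0.22 and -0.35 ± 0.22 between control mandible and maxilla at the distal and proximal ends. Between the distal and proximal ends of controls it differed by 0.11 ± 0.22 in the mandible and -0.17 ± 0.22 in the maxilla. All 4 of these Runx1 intervals included 0 and together ran from -0.81 to 0.57.

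The probe sets of Runx1 moved together to different degrees. Over the 32 arrays 1422864_at correlated with 1440878_at at 0.90, with 1422865_at at 0.85, with 1427650_a_at at 0.66 and with 1452531_at at 0.49. It correlated with Runx3 1440275_at at 0.54 and with Cbfb at 0.41. These values mix differences between genotypes, regions and numbers, since all arrays enter, and they describe these 32 arrays only.

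The genes most like each member were taken by Pearson correlation over the 32 arrays. Each gene entered by its probe set with the highest mean among those past the filter. For Runx1 they were Inhba, a subunit of activin, at 0.77, the cell survival gene Bcl2 at 0.77, the membrane peptidase gene Mme at 0.77, Apbb2 at 0.75 and Glce, an enzyme of heparan sulphate synthesis, at 0.73. Within groups, after the group means were removed, the same 5 correlations were 0.28, 0.23, 0.27, 0.28 and 0.57. For Runx3 they were Armh4 at 0.86, the neural alpha-catenin gene Ctnna2 at 0.82, the ubiquitin ligase gene Mylip at 0.78, Ehbp1 at 0.78 and Hpcal1 at 0.78. For Cbfb they were Pus7, a pseudouridine synthase, at 0.73, the kinase gene Plk2 at 0.71, Anln at 0.69, the cytochrome c gene Cycs at 0.67 and the proteasome subunit gene Psmd6 at 0.66.

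The proteins that work with Runx factors were tested gene by gene. Of 29 listed cofactors 25 were tested, each gene by 1 probe set, and 0 were called in any region or in the average by limma. The distal mandible had 3 lower and 2 higher at an unadjusted p under 0.05, the proximal mandible 1 and 2, the distal maxilla 4 and 0, the proximal maxilla 1 and 0, and the average 1 and 0. The share of all genes called lower and higher was 1.09% and 0.328% for distal mandible, 0.518% and 0.460% for proximal mandible, and 0.197% and 0.182% for distal maxilla. It was 0.00730% and 0.0365% for proximal maxilla, and 0.328% and 0.248% for the average. The share of all probe sets at an unadjusted p under 0.05, in either direction, was 14.6%, 9.23%, 9.93%, 3.73% and 11.5% in the same order. The unadjusted counts of this list and the later ones stand beside those shares, which are not split by direction. Tle1, a corepressor of the Groucho family that Runx proteins recruit, differed by -0.55 ± 0.15 in the distal mandible (limma, adjusted p = 0.0715) and by -0.39 ± 0.12 on average (adjusted p = 0.226). Kat6b, an acetyltransferase that acts with Runx proteins, differed by -0.34 ± 0.13 in the distal mandible (adjusted p = 0.222). The cofactor medians lay between -0.08 and 0.05 in the 4 regions.

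Of the proteins that hold Runx2 back, 10 were tested and 0 were called in any region or in the average by limma. Distal mandible had 1 lower and 1 higher at an unadjusted p under 0.05, proximal mandible and distal maxilla 1 lower each, and the rest 0. Their medians lay between -0.09 and 0.05 over the 4 regions. Twist2, a transcription factor that blocks Runx2 function, differed by -1.08 ± 0.40 in the distal maxilla (limma, adjusted p = 0.302) and by 0.41 ± 0.40 in the proximal maxilla (adjusted p = 1.00). Zfp521, a zinc finger protein that antagonises Runx2, differed by -0.36 ± 0.12 in the distal mandible (adjusted p = 0.149).

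Among the 10 genes that raise Runx2, Bmp2, a ligand of the BMP pathway, was the single one called, and it fell in 3 regions and on average. Distally in the mandible it read 8.81, 9.53, 9.37 and 9.24 in mutants, against 10.47, 10.31, 10.71 and 10.21 in controls. The groups were well apart, with a difference of -1.19 ± 0.19 (limma, adjusted p = 0.00137). It differed by -0.87 ± 0.19 for proximal mandible and -0.93 ± 0.19 for distal maxilla (limma, adjusted p = 0.0262 and 0.0303), and by -0.72 ± 0.11 on average (adjusted p = 0.0462). In the proximal maxilla Bmp2 read 9.82, 10.50, 9.91 and 9.93 in mutants, against 10.32, 9.77, 9.77 and 9.83 in controls, and the groups overlapped.

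Leaving out number 3 of both genotypes ended the Bmp2 call in the distal mandible. The calls in the proximal mandible and distal maxilla ended in 9 and 10 of the 12 settings that leave out replicates, and the average call ended in 10. Without the arrays of high Xist the calls in the proximal mandible and the average ended too. The average call also ended with the replicate block. The homeobox genes Dlx5 and Dlx6 differed by -0.66 ± 0.32 and -1.07 ± 0.46 in the proximal maxilla, and neither passed (limma, adjusted p = 1.00 for both). Not all of the 10 genes fell. In the proximal mandible 2 were lower and 3 higher at an unadjusted p under 0.05 by limma, with differences up to 1.16. Distal mandible and distal maxilla had 2 lower and 0 higher each, the proximal maxilla 1 and 0, and the average 3 and 0.

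Of 10 osteoblast genes and Runx2 targets tested, 1 was called, and that in the distal mandible. By limma 0 were called in the other regions or the average. At an unadjusted p under 0.05, 4 were lower in the distal mandible and 6 in the proximal mandible. The distal maxilla had 2 lower, the proximal maxilla 1 and the average 5, with 0 higher in each. The gene called was Tnfsf11, the osteoclast-inducing ligand RANKL. It read 4.74, 5.54, 5.14 and 4.99 in mutants, against 7.85, 7.65, 7.61 and 6.98 in controls. The groups did not overlap. Tnfsf11 lay above the filter level on 4 of 4 control arrays of this region, on 0 of 16 mutant arrays and on 2 other control arrays. It thus entered the test through the group where it is high, and its call is a description only. The call ended without number 3 of both genotypes. Another Tnfsf11 probe set, with a higher mean over all arrays (5.54), exceeded the filter level on 1 array and was not tested.

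The medians of the 10 genes were -0.75 for distal mandible, -1.09 for proximal mandible, -0.85 for distal maxilla and -0.35 for proximal maxilla. Over all genes the medians were -0.03, 0.01, -0.03 and 0.02 in the same regions. The list keeps Tnfsf11, and Phex, Tnfrsf11b, Panx3 and Omd lay above the filter level on only 6, 11, 13 and 19 arrays. Genes that pass the filter through a control group where they are high can lower the list's medians and mutant means and raise its counts of lower genes. How far this happened was not tested, so these list values are a description only. Sp7, the osteoblast transcription factor osterix, differed by -1.61 ± 0.54 in the proximal mandible and Col1a1, the main collagen of bone, by -0.80 ± 0.25 (limma, adjusted p = 0.236 and 0.2). Mmp13 and Mepe, which mark more mature bone cells, lay above the filter level on 0 arrays.

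The mean over the 10 osteoblast genes in the proximal mandible was 7.50, 7.59, 7.27 and 7.66 in mutants, against 10.58, 8.03, 7.91 and 8.21 in controls. Control number 1 stood far above the other 7 arrays. At the distal end the mean was 7.91, 7.90, 7.79 and 7.66 in mutants, against 9.84, 8.68, 8.59 and 8.32 in controls. Control number 1 had the highest mean in the maxilla too, at 9.73 at the distal and 8.88 at the proximal end, so the spread of this list came largely from that number. Mutants and controls did not overlap in either mandible region, and they did in both maxilla regions. Without number 1 of both genotypes Runx1 1422864_at was still called in the proximal mandible and in the average, while 1440878_at lost its call in the distal mandible (-0.56, limma, adjusted p = 0.163).

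Cartilage genes gave 0 calls of 15 tested in any region or in the average by limma. Unadjusted p-values under 0.05 numbered 1, 2, 3 and 4 lower in distal mandible, proximal mandible, distal maxilla and proximal maxilla and 6 lower in the average, with 0 higher in each. The medians were -0.25, -0.50, -0.47 and -0.50 in those 4 regions. In the proximal mandible the mean over the list was 8.70, 9.25, 9.15 and 8.86 in mutants, against 10.50, 9.39, 8.997 and 9.25 in controls. In the proximal maxilla it was 8.56, 9.92, 9.19 and 8.35 in mutants, against 10.62, 9.31, 9.37 and 9.24 in controls. Control number 1 stood apart from the other controls in both, and its part in these differences was not tested. Acan, the main cartilage proteoglycan, differed by -1.37 ± 0.42 on average (limma, adjusted p = 0.233).

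**Figure D4:**
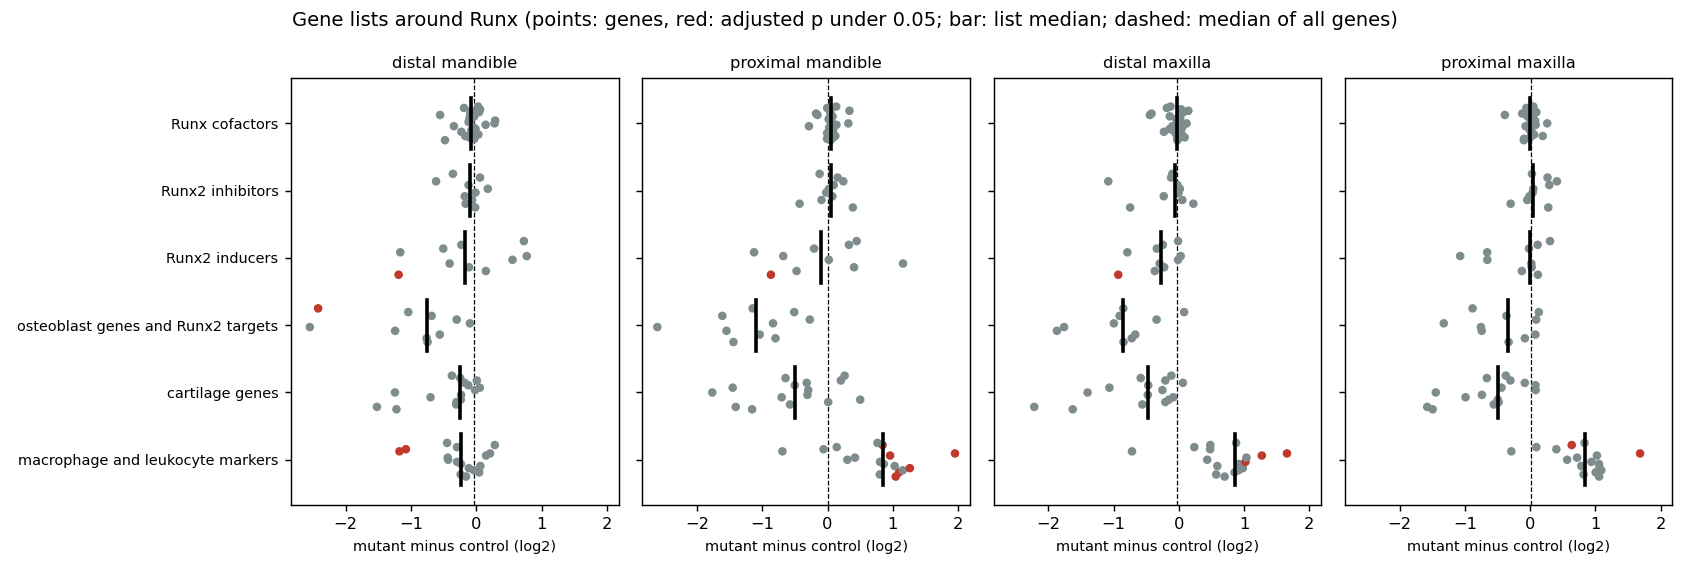
Mutant minus control difference in log2 units for the genes of 6 lists around the Runx family, with 1 panel for each region. Points are genes, red marks an adjusted p under 0.05, the bar is the list's median and the dashed line is the median of all genes. Runx cofactors sit near 0 (medians -0.08 to 0.05), osteoblast genes to the left (-1.09 to -0.35), and macrophage markers to the right in 3 regions (0.83 to 0.85) but not in the distal mandible (-0.24).

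Blood cells also express Runx1, so markers of such cells were set beside it. Of 17 macrophage and leukocyte markers tested, 6 rose in the proximal mandible, 3 in the distal maxilla and 2 in the proximal maxilla, and 0 fell in these regions. Ms4a7, a membrane protein of tissue macrophages, differed by 1.95 ± 0.29, 1.66 ± 0.29 and 1.68 ± 0.29 in those regions (limma, adjusted p = 0.000626, 0.0102 and 0.0147). Trem2, a macrophage receptor, rose in the proximal mandible by 0.84 ± 0.12 (limma, adjusted p = 0.000354). By contrast 2 of 17 fell and 0 rose in the distal mandible, namely the platelet and macrophage chemokine gene Pf4 (-1.18 ± 0.21) and the pan-leukocyte gene Ptprc (-1.08 ± 0.22) (limma, adjusted p = 0.00382 and 0.0128). Both calls ended without number 3 of both genotypes, and that of Ptprc ended in 6 of the 12 settings that leave out replicates. The mean over the 17 markers was 8.92 to 9.18 in mutant proximal mandible against 8.05 to 8.47 in controls. It was 7.76 to 7.88 in mutant distal mandible against 7.78 to 8.43 in controls. At an unadjusted p under 0.05 by limma, 1 marker was lower and 12 were higher in the proximal mandible. The distal maxilla had 1 lower and 14 higher, the proximal maxilla 0 and 14, the distal mandible 2 and 1, and the average 1 and 13. Not every marker rose, since the lowest difference was -0.69 in proximal mandible, -0.72 in distal maxilla and -0.29 in proximal maxilla. Itgam lay above the filter level on 0 arrays.

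The counts of macrophage markers that rose varied when replicates were left out, from 1 to 7 for proximal mandible, 0 to 7 for distal maxilla and 0 to 6 for proximal maxilla. Without number 2 of both genotypes 1 was called in the proximal mandible. On average over regions 5 rose, Mpeg1, Ms4a7, Trem2, C1qc and C1qa, and 0 to 12 did when replicates were left out. The part of macrophages in the Runx1 values was not tested.

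Of 12 tested blood progenitor and megakaryocyte genes, 1 fell in the distal mandible, the platelet integrin gene Itga2b (-0.41 ± 0.09, limma, adjusted p = 0.0143), and 0 were called in the other regions or the average. The Itga2b call ended in 8 of the 12 settings that leave out replicates, without the array of degraded RNA and without the arrays of high Xist. At an unadjusted p under 0.05, distal mandible, proximal mandible and distal maxilla had 4 lower and 1 higher each. The proximal maxilla had 0, and the average 5 lower and 0 higher. Their mean was 8.32 to 8.48 in mutant proximal mandible, against 8.46 to 8.58 in controls. Of 6 erythroid markers 0 were called in any region, with 2, 1, 1 and 0 lower at an unadjusted p under 0.05 in distal mandible, proximal mandible, distal maxilla and proximal maxilla, and their medians were -0.31, -0.17, -0.19 and 0.01. Gfi1 and Hba-a1 lay above the filter level on 0 arrays. The part of these cells in the Runx1 values was not tested.

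Sensory neurons express Runx1 and Runx3, and oral epithelium expresses both as well. Of 14 sensory neuron markers 1 fell in the distal mandible and on average, Stmn2, a gene of growing axons (-2.49 ± 0.44 and -1.05 ± 0.14; limma, adjusted p = 0.00342 and 0.0285). The distal mandible call ended without number 1 or number 2 of both genotypes. The average call ended in 8 of the 12 settings that leave out replicates and without the arrays of high Xist. The list's medians were -0.18, -0.61, 0.77 and -0.74 in distal mandible, proximal mandible, distal maxilla and proximal maxilla. By limma 0 passed in the other regions, with 2 lower, 3 higher and 4 lower at an unadjusted p under 0.05 in proximal mandible, distal maxilla and proximal maxilla. Scn10a lay above the filter level on 0 arrays. The 13 oral epithelium markers gave 0 calls by limma and medians of -0.25, 0.33, 0.15 and -0.19, with 0, 1, 4 and 0 higher and 0 lower at an unadjusted p under 0.05. Skeletal muscle markers (15 tested) and endothelial markers (12 tested) also gave 0 calls in any region by limma. Muscle had, at an unadjusted p under 0.05, 7 higher in the distal mandible, 0 in the other regions and 4 higher in the average. In the distal mandible 14.6% of all probe sets did so in either direction. Endothelium had 1 higher in the distal mandible, 4 lower in the distal maxilla, 1 lower in the proximal maxilla and 3 lower in the average. The part of nerve, epithelium and muscle in the Runx values was not tested.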

How the data were processed

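The authors' deposited values are log2 expression, with 1 value for each probe set on each array, and were made with RMA per the submitters' processing notes, which give no version. RMA corrects background, quantile-normalizes arrays and summarises probes, so a shift common to most genes would be removed. The genome build is not given in the sources used here, and 0 columns of values were left unused. Of 45101 probe sets, 64 were manufacturer's controls. The filter on low signal kept the 29356 probe sets that exceeded percentile 40 of the array on 4 or more arrays. The platform annotation gave 1 symbol to 34958 probe sets, several to 932 and none to 9160 besides the controls, and those without 1 symbol entered the fits but name no gene. For gene lists, each gene was represented by its probe set with the highest mean among those past the filter (13705 genes). In any list, a gene above the filter level on few arrays may have entered through the group where it is high. The effect of such genes on list medians and counts was not tested.

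Comparisons used limma 3.58.1 in R 4.3.3, with a model of 8 group means (24 residual degrees of freedom), and for the average a model of regional means by genotype and number (6 residual degrees of freedom). P-values were adjusted by Benjamini-Hochberg over all probe sets of a comparison, with a threshold of 0.05, and 13 comparisons and 14 lists were run. The script was tested on simulated data. Group spread is given as SD over 4 arrays, and precision is limited by how many arrays there are. The members, lists and tests were chosen with earlier results of these data known. Named list genes are up to 4 per list and comparison with the smallest adjusted p, or all called where 5 or fewer were, and the genes most like a member are the 5 with the highest correlation.

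Same-numbered mutant and control values deviated together in the average (correlations over probe sets of 0.48, 0.16, 0.22 and 0.26 for numbers 1 to 4) and in the proximal mandible (0.34, 0.21, 0.19 and 0.30). The numbers may thus pair samples there, judged from the data and not from a label. In every other comparison checked, some of the correlations lay near or below 0. That of number 1 was still positive in each, from 0.24 between the ends of the control mandible to 0.68 between the ends of the control maxilla. The reported fits do not include this pairing. The fit with the replicate number as a block does, and it is given as an alternative. No 2 arrays were identical. Alternatives were 25 settings of filter, normalization, model and left-out arrays, of which 1, without the arrays of high Xist, was chosen after seeing the data. Promoter windows were RefSeq's.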

Additional observations from a re-analysis of the deposited data

Results flagged for a closer look

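In 5 of 72 groups of 4 arrays, 1 array lay far from the other 3 of its group by Dixon's criterion, which chance alone meets in about 1 group in 20. All 5 flagged readings come from arrays of number 1, the number whose spike-in readings differ. They are not from 5 separate arrays, since control distal maxilla number 1 was flagged for both Runx1 1452531_at and Runx3 1421467_at. Runx1 1422865_at read 7.60 on mutant distal mandible number 1, where the other 3 read 8.45 to 8.62. Runx1 1452531_at read 8.03 on mutant distal maxilla number 1 (others 7.38 to 7.48) and 7.37 on control distal maxilla number 1 (others 7.68 to 7.71). Runx3 1421467_at read 7.20 on mutant proximal maxilla number 1 (others 6.80 to 6.83) and 7.22 on control distal maxilla number 1 (others 6.85 to 6.89).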

How the results depend on the processing

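The counts here are of the 8 Runx and Cbfb probe sets called, as reported 1 in the distal mandible, 2 in the proximal mandible, 2 in the average and 0 elsewhere. The distal mandible gave 0 without a filter, with 1 probe set per gene, without the array of degraded RNA, with only the groups compared and without the arrays of high Xist. The proximal mandible gave 1, and the average 1, with 1 probe set per gene. Without the arrays of high Xist they gave 1 and 0. The replicate block gave 1 in the average and 3 in the proximal mandible, and changed no other member's call. Over all probe sets the block called 469 in the proximal mandible and 239 in the average, where the reported fits called 196 and 110. The contrast in the model of 8 group means gave 4 in the average. Array weights gave 3, 6, 3, 1 and 4 in distal mandible, proximal mandible, distal maxilla, proximal maxilla and average. They also gave 1 between the ends of the control mandible, where they called 9392 of all probe sets. Not all of these were Runx1. With array weights Runx3 1440275_at was called in the proximal mandible (-1.05) and distal maxilla (-0.94) (limma, adjusted p = 0.00318 and 0.0318). Cbfb was called in the distal maxilla (-0.18, limma, adjusted p = 0.0356). The call between the ends of the control mandible was Runx3 1440275_at (0.62, limma, adjusted p = 0.0480). Leaving out replicates gave 0 to 1 in the distal mandible, 0 to 2 in the proximal mandible, 0 to 2 in the average, 0 to 1 between the ends of the control mandible and 0 in the other comparisons, with fewer arrays in each fit. Over all probe sets, leaving out replicates called 42 to 410 in the distal mandible, 27 to 245 in the proximal mandible and 0 to 694 in the average, against 312, 196 and 110 as reported. No called member value changed direction in any setting. The cause of the other moves was not tested. For the average, no separate fit was made without the degraded array or with only the groups compared.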
